A study of Mus musculus with 12 samples.

Results

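The hypoxia-inducible factor (HIF) genes examined here were Epas1, Hif1a, Hif3a, Arnt, Arnt2, Egln1, Egln3 and Vhl. They were chosen by name, as the rows of the count files whose Ensembl identifier carries one of these symbols in Gencode vM1, and they are 8 of the 37310 genes counted. Epas1 was taken up because its TRAP counts differed between the genotypes in an earlier look at these data. Its difference between KO and WT in TRAP, that difference set against input, and its ratios of TRAP to input are therefore given as a description with no test. All 8 genes passed the filter on low counts in every comparison.

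HIF is a transcription factor made of an alpha subunit and a partner that switches on genes for glycolysis, vessel growth and iron handling when oxygen is short. Its alpha subunit is encoded by Hif1a (HIF-1α), Epas1 (HIF-2α) or Hif3a (HIF-3α), and its partner by Arnt or Arnt2. While oxygen is present, the prolyl hydroxylases encoded by Egln1 (PHD2) and Egln3 (PHD3) modify the alpha subunit, and the product of Vhl, the recognition subunit of a ubiquitin ligase, then marks it for degradation. The system is therefore controlled to a large extent at the level of protein, which mRNA counts do not measure. In brain, Epas1 is best known from endothelial cells and astrocytes, Hif1a is expressed broadly, and Arnt2 is the partner known from neurons.

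The libraries came from ventral hippocampus (vHPC) of C57BL/6 mice of the genotypes WT and FosB fl/fl (KO). FosB encodes an AP-1 transcription factor, and the study asked which genes it regulates in vHPC neurons that project to nucleus accumbens (NAc). All mice carried Rosa26 eGFP/L10a, a Cre-dependent gene for a GFP-tagged protein of the large ribosomal subunit, and all received retrograde HSV-Cre in NAc 3 weeks before the tissue was punched, so WT mice also had Cre and the tag. Translating ribosome affinity purification (TRAP) then pulled the tagged ribosomes out of the homogenate with anti-GFP antibodies, and input is RNA of the whole punch. Each genotype had 3 pools of 3 mice by the labels, or of 3 to 4 by the protocol, numbered 1 to 3 in WT and 2 to 4 in KO, and every pool was split into TRAP and input. A label without the word input was read as TRAP. The age of these mice was not given in the sources used here. Cre in NAc can act in any neuron whose axon or cell body takes up the vector, so the deletion is not confined to vHPC, and in KO input the cells without Cre keep FosB.

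Between 3416030 and 5614089 reads were counted on genes per library, at which 3 counts correspond to 0.534 to 0.878 CPM (counts scaled by library size). Floors of this kind cover counting error only. Fosb itself, the targeted gene, had 32.0 to 45.2 CPM in WT TRAP and 18.8 to 29.3 CPM in KO TRAP, and 22.2 to 30.2 CPM in WT input and 14.8 to 17.0 CPM in KO input. Every KO library was thus below every WT library of its kind, although the counts cover the whole gene and not the deleted exons alone. KO stood at 59.0% of WT in TRAP and at 62.5% in input. The difference of the log2 ratios of TRAP to input, KO minus WT, was -0.08 with a standard error of 0.30, and was not called. The check therefore shows no fall of Fosb particular to TRAP. The labelled tissue, hippocampal neurons, was checked on marker genes: 9 of 13 general neuronal and 6 of 10 glutamatergic markers were called higher in TRAP than in input and 0 were called lower, and 10 of 12 GABAergic markers were called lower and 1 higher. For oligodendrocytes 15 of 15 markers, for microglia 13 of 13 and for mural cells 6 of 8 were called lower in TRAP, and 1 mural marker was called higher. Among TRAP libraries alone only 9, 1 and 4 markers of these lists passed the filter on low counts. The others entered the comparison through input, where they are high.

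The stretches 250 bases upstream of the start were searched on both strands for the core HIF response element (ACGTG or GCGTG), the AP-1 site TGANTCA and the CRE-like site TGACGTCA. Promoter sequence from RefSeq (GRCm38.p6) matched 7 of the 8 genes, all but Epas1. ACGTG was found in Hif1a, Egln1 and Egln3 (3 of 7, against 16.57% of 32851 promoters), and GCGTG in Hif3a, Arnt and Egln1 (3 of 7, against 28.16%). TGANTCA was in 0 of 7 (6.749% of promoters), and TGACGTCA in Arnt alone (1.546%). A match describes the letters and shows no binding. The upstream stretches of Arnt, which holds the CRE-like site and was called between TRAP and input, and of Egln3, which varied widely between pools, are shown 5′ to 3′ on the strand of the gene, with the matches in capitals. Arnt lies on the plus strand (chr3:95434140-95434389) and Egln3 on the minus strand (chr12:54203875-54204124). In Arnt the capitals mark TGACGTCA and, nearer to the start, GCGTG, and in Egln3 they mark ACGTG.
Arnt: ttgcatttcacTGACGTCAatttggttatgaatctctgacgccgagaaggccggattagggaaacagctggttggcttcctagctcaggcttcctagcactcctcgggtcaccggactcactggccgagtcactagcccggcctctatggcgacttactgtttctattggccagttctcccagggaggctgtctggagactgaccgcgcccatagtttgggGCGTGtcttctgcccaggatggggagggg
Egln3: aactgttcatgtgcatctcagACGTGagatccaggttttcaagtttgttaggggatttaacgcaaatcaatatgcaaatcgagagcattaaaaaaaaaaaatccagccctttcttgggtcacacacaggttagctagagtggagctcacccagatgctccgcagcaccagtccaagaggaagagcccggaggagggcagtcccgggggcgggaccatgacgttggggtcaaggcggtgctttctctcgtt

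In whole tissue, Arnt2 and Epas1 were the most abundant of the 8 transcripts per kilobase of exon, and in TRAP Epas1 dropped from that place. In WT input Arnt2 had 55.8 ± 2.57 CPM per kb (SD, n = 3), Epas1 23.4 ± 1.58, Egln1 19.2 ± 2.36, Hif1a 16.4 ± 0.158 and Vhl 12.8 ± 1.66. Below these came Arnt at 3.58 ± 0.216, Egln3 at 3.46 ± 1.37 and Hif3a at 0.871 ± 0.175 CPM per kb. Arnt and Egln3 overlapped between libraries, and no other neighbours in that order did. In WT TRAP, Epas1 stood in the fifth place with 4.38 ± 0.0788 CPM per kb, next to Egln3 at 4.31 ± 3.04, whose libraries overlapped with it. In KO TRAP it stood in the seventh place with 1.88 ± 0.523 CPM per kb, overlapping with Arnt at 2.25 ± 0.388. Arnt2 was first, Hif1a and Egln1 overlapped behind it, and Hif3a was last in both TRAP groups.

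**Figure D1:**
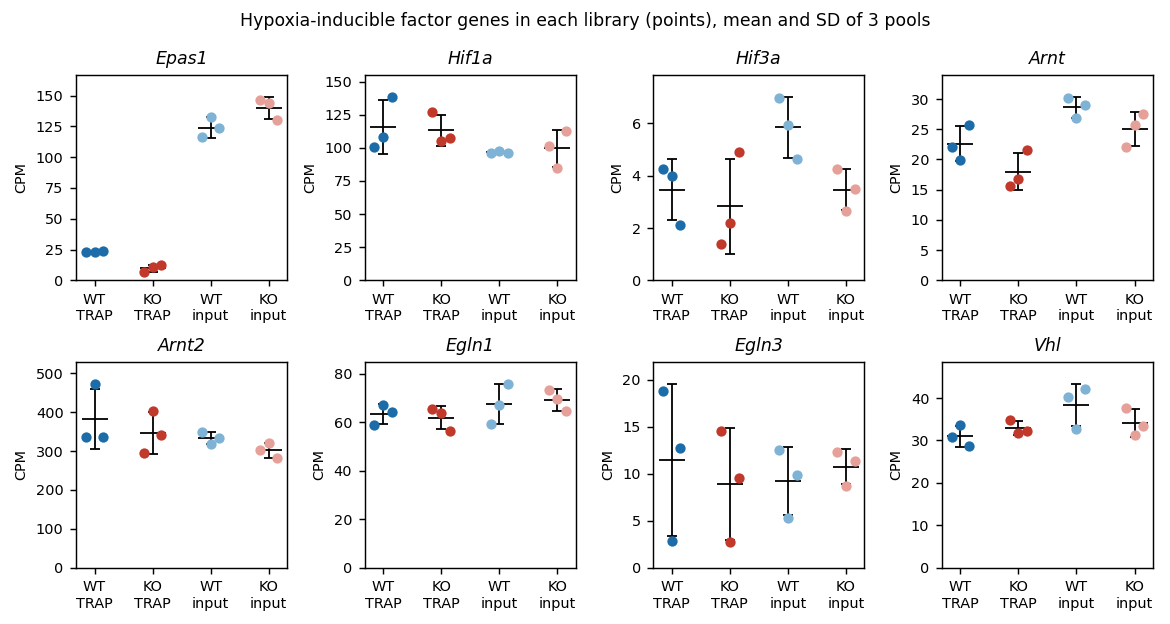
Level of each of the 8 genes in CPM (linear axes from 0, each gene with its own scale) in the TRAP and input libraries of WT and KO; points are libraries, the long bar is the mean and the whiskers the SD of 3 pools. Epas1 alone of the 8 has its 6 TRAP libraries, at 6.97 to 23.6 CPM, all below its 6 input libraries, at 116 to 146 CPM. Of all 13214 genes tested, 12.6% had every TRAP library below every input library.

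Epas1 (ENSMUSG00000024140.9, mm9 chr17:87153247-87232750, plus strand) was much lower in TRAP libraries than in those of the whole punch. The 3 WT TRAP libraries held 23.3, 22.8 and 23.6 CPM (131, 97 and 89 counts), and the WT input libraries of the same pools 116, 133 and 123 CPM. The KO TRAP libraries held 6.97, 10.5 and 12.5 CPM (25, 43 and 51 counts), and their input libraries 146, 144 and 130 CPM. All TRAP libraries were thus below all input libraries, and all KO TRAP libraries below all WT TRAP libraries. The lowest, KO TRAP pool 2, also stood apart in its markers, with a GABAergic sum of 907 CPM beside 443 and 432 CPM in the other KO TRAP libraries and a mural sum of 29.8 beside 49.0 and 51.5 CPM. Without that pool the log2 difference of Epas1 between KO and WT in TRAP was -1.02. Over both genotypes, Epas1 was 8.62-fold lower in TRAP than in input (log2 -3.11 ± 0.11 SE), in 6 of 6 pools. This value has no test, since it includes the TRAP libraries for which the gene was taken up. Of all 13214 genes tested in this comparison 42.2% were called at an adjusted p under 0.05, and 12.6% had every TRAP library below every input library. Fewer labelled cells of a type and less RNA per cell cannot be told apart in bulk libraries. The share of the TRAP reads that came from tagged ribosomes was not measured.

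Within WT the log2 ratio of TRAP to input of Epas1 was -2.41 ± 0.15 SE and within KO -3.81 ± 0.17. Neither has a test, since the TRAP libraries of both genotypes are those for which the gene was taken up. In the single pools it was -2.29, -2.52 and -2.36 in WT and -4.30, -3.72 and -3.33 in KO, from log2 of CPM with 0.5 added. The pools of the genotypes therefore did not overlap. These values are those for which Epas1 was taken up: KO was 2.32-fold lower than WT in TRAP (log2 -1.21 ± 0.27 SE), and the difference of the log2 ratios of TRAP to input, KO minus WT, was -1.38 ± 0.23. Over all genes, 0.0682% of 11727 were called between KO and WT in TRAP, 6.12% had every KO library below every WT library, and 0.00757% of 13214 were called for the difference of the ratios. Nothing is read from these shares for Epas1, since its own values are among those behind them.

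In input, which is the whole tissue, Epas1 was not called between KO and WT. The mean was 140 ± 9.03 CPM in KO and 124 ± 8.38 CPM in WT (SD, n = 3), a log2 difference of 0.18 ± 0.12 (95% interval -0.07 to 0.42, edgeR adjusted p = 1.00), and the groups overlapped. The exact permutation test of 3 pools against 3 gave p = 0.2, two-sided, where the smallest possible is 0.1. The interval allows KO to lie between 95.4% and 134% of WT.

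Because Epas1 is known from astrocytes and endothelial cells, their markers were read in the same libraries. All 16 of 16 astrocyte markers were lower in TRAP than in input, with a median log2 ratio of -2.89, beside -0.01 over all genes. Their summed level was 335 to 434 CPM in WT TRAP, 356 to 396 CPM in KO TRAP, 2162 to 2323 CPM in WT input and 2256 to 2623 CPM in KO input, and the TRAP groups of this sum overlapped. The most abundant, the glutamate transporter gene Slc1a2, had 193 to 288 CPM in WT TRAP and 224 to 257 CPM in KO TRAP. Of the 13 astrocyte markers tested between KO and WT in TRAP, 0 were called by edgeR or DESeq2, with 1 at an unadjusted p under 0.05, and 5 were higher and 8 lower. For the difference of the ratios of TRAP to input, KO minus WT, 12 of 16 astrocyte markers had values below 0, with a median log2 value of -0.20 and a lowest of -1.44, and 0 were called by edgeR or DESeq2 and 1 had an unadjusted p under 0.05. No astrocyte marker was at 0 in all libraries of a group.

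Endothelial markers summed to 32.7 to 40.4 CPM in WT TRAP and 37.6 to 46.6 CPM in KO TRAP, beside 68.5 to 84.7 and 86.7 to 108 CPM in input. Of the 26 listed, 8 were at 0 in every WT TRAP library, among them the tight junction gene Cldn5 and the receptors Tek and Tie1, and 8 were at 0 in every KO TRAP library, among them Tek, Tie1 and the cadherin Cdh5. Of the 15 tested, 9 were called lower in TRAP than in input and 0 higher, while 13 had a log2 ratio below 0 and 2 above it. Among TRAP libraries alone only 5 endothelial markers passed the filter on low counts, so the rest of the 15 entered the comparison through input. The most abundant endothelial markers were the glucose transporter Slc2a1, at 5.41 to 10.1 CPM in WT TRAP and 6.35 to 11.995 CPM in KO TRAP, and Cd34, with a log2 ratio of TRAP to input of 0.17. Mural cell markers summed to 47.0 to 63.0 CPM in WT TRAP and 29.8 to 51.5 CPM in KO TRAP, which overlapped, and to 64.5 to 109 CPM in WT input and 112 to 117 CPM in KO input, which did not. The pericyte gene Rgs5, the most abundant of them, had 17.2 to 32.7 CPM in WT TRAP and 6.42 to 22.2 CPM in KO TRAP, which overlapped, and a log2 ratio of TRAP to input of -1.27. The proteoglycan gene Cspg4, which is also known from oligodendrocyte precursors, had 16.2 to 34.1 CPM in WT TRAP and 9.76 to 14.9 CPM in KO TRAP, with no overlap, and was higher in TRAP than in input (log2 0.95), against a median of -1.54 over the mural list. Of the 4 mural markers tested between KO and WT in TRAP 0 were called and 2 had an unadjusted p under 0.05. The part of any of these cells in the Epas1 values was not tested.

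**Figure D2:**
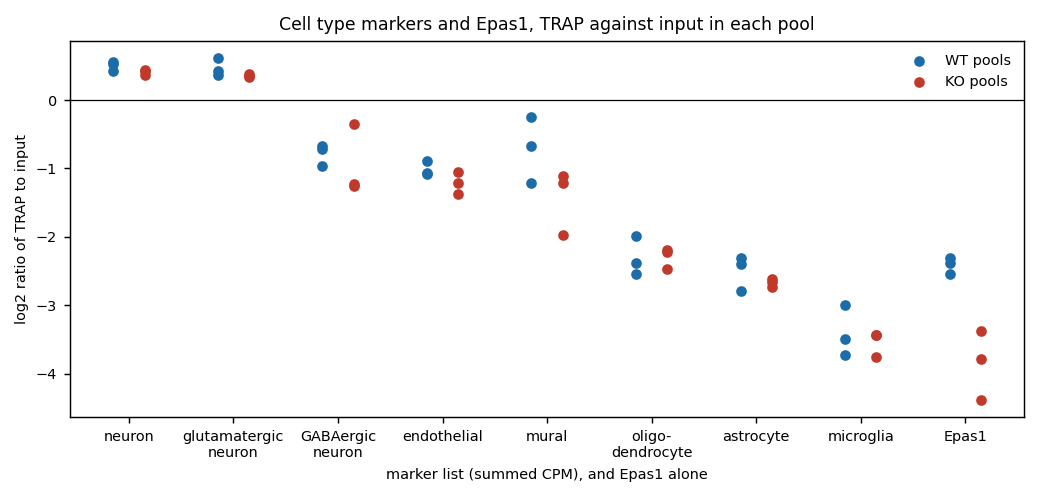
Log2 ratio of TRAP to input in each pool for the summed CPM of 8 marker lists and for Epas1 alone (no value added before the logarithm); blue points are WT pools and red points KO pools. Astrocyte markers lie between -2.79 and -2.32 in WT and -2.73 and -2.62 in KO, sums in which Slc1a2 has the largest share, and Epas1 lies between -2.54 and -2.32 in WT and -4.39 and -3.38 in KO.

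The genes whose pattern over the 12 libraries was most like that of Epas1, by Pearson's r of log2(CPM + 0.5) among 13213 genes, were Kcnj10 (0.990), Bcan (0.987), Slco2b1 (0.984), Neu4 (0.983) and S100a13 (0.981). This likeness uses the values for which Epas1 was taken up, and the libraries share depth and the split into TRAP and input. Kcnj10, an inward rectifier potassium channel of glia, had 3.72 to 5.51 CPM in WT TRAP, 1.39 to 3.42 CPM in KO TRAP, 21.5 to 33.0 CPM in WT input and 27.1 to 35.3 CPM in KO input. Bcan, which encodes the matrix proteoglycan brevican, had 7.52 to 10.3 CPM in WT TRAP, 3.35 to 4.88 CPM in KO TRAP, 34.1 to 47.9 CPM in WT input and 38.1 to 53.5 CPM in KO input. Both thus had TRAP groups that did not overlap. Slco2b1, Neu4 and S100a13 were near the floor of 3 counts in KO TRAP, at no more than 0.733 CPM. Among the other members Arnt had the highest r with Epas1, 0.815.

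Hif1a (ENSMUSG00000021109.7, chr12:75002362-75048517), which encodes the broadly expressed alpha subunit, did not pass the test between TRAP and input. It had 100, 108 and 139 CPM in WT TRAP, 127, 105 and 107 CPM in KO TRAP, 96.0, 97.7 and 96.2 CPM in WT input and 101, 85.0 and 113 CPM in KO input. The groups overlapped between the genotypes. TRAP minus input was 0.22 ± 0.10 on the log2 scale, higher in 5 of 6 pools, with an adjusted p of 0.0692, and it passed the threshold with total counts in place of TMM (adjusted p = 0.0472) and without WT pool 1 or KO pool 4. KO minus WT was -0.03 ± 0.13 in TRAP and 0.04 ± 0.13 in input (95% interval -0.23 to 0.32). The exons of Hif1a share 330 bases, 5.597% of their length, with the antisense lincRNA Gm15283, which had at most 8 counts in a library.

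Hif3a (ENSMUSG00000004328.8, chr7:17616856-17647776, minus strand), the alpha subunit whose shorter forms can oppose the others, was the least abundant of the 8 genes, with 5 to 26 counts per library. It had 4.27, 4.00 and 2.13 CPM in WT TRAP, 1.39, 2.19 and 4.88 CPM in KO TRAP, 6.96, 5.95 and 4.62 CPM in WT input and 4.26, 2.66 and 3.49 CPM in KO input. The TRAP groups overlapped, while in input every KO library was below every WT library, which held for 4.17% of 12816 genes. The log2 difference in input was -0.74 ± 0.45 (95% interval -1.69 to 0.21, edgeR adjusted p = 1.00). In TRAP it was -0.30 ± 0.60, and -0.94 ± 0.76 without KO pool 4, so at this depth no direction can be read from it. TRAP minus input was -0.51 ± 0.38 (adjusted p = 0.306). Hif3a lies 2.24 Mb from Fosb on chromosome 7, the chromosome that carries the floxed allele in KO mice.

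Arnt (ENSMUSG00000015522.11, chr3:95238310-95301162), the general partner subunit, passed the test between TRAP and input over both genotypes. It had 22.1, 20.0 and 25.8 CPM in WT TRAP, 15.6, 16.8 and 21.5 CPM in KO TRAP, 30.2, 26.8 and 29.1 CPM in WT input and 22.01, 25.7 and 27.4 CPM in KO input. Every pool had less in TRAP than in its own input, although the libraries overlapped across pools. It was 1.33-fold lower in TRAP (log2 -0.41 ± 0.15, edgeR adjusted p = 0.0243), and this call was lost without WT pool 1 or 2 or KO pool 2, 3 or 4 (adjusted p of 0.0561 to 0.0959) and with no filter beyond 1 count in any library (0.0521). KO minus WT was -0.33 ± 0.24 in TRAP and -0.19 ± 0.19 in input, with overlapping groups in both.

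Arnt2 (ENSMUSG00000015709.8, chr7:91394791-91558469, minus strand), the partner known from neurons, had the highest level of the 8 in each of the 4 groups. Its values were 337, 473 and 338 CPM in WT TRAP, 295, 402 and 342 CPM in KO TRAP, 350, 319 and 333 CPM in WT input and 303, 321 and 282 CPM in KO input. The groups overlapped throughout. TRAP minus input was 0.20 ± 0.09 on the log2 scale, higher in 4 of 6 pools (adjusted p = 0.0734), and 4 of 14 alternatives, among them total counts in place of TMM (adjusted p = 0.0351), brought it past the threshold. Without WT pool 2 it was 0.09 (adjusted p = 0.43). KO minus WT was -0.14 ± 0.14 in TRAP and -0.14 ± 0.10 in input, the latter with a 95% interval of -0.36 to 0.07.

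Egln1 (ENSMUSG00000031987.5, chr8:127432496-127473154, minus strand), which encodes the main oxygen-sensing hydroxylase, differed little between groups. It had 58.7, 67.0 and 64.02 CPM in WT TRAP, 65.3, 63.9 and 56.4 CPM in KO TRAP, 59.2, 67.1 and 75.8 CPM in WT input and 73.4, 69.6 and 64.5 CPM in KO input. TRAP was lower than input in 6 of 6 pools, by small amounts (log2 -0.13 ± 0.10, adjusted p = 0.306). The ratios of single pools ran from -0.24 to -0.0009, so the latter pool was close to a tie. KO minus WT was -0.03 ± 0.14 in TRAP and 0.04 ± 0.14 in input (95% interval -0.26 to 0.34). Cut into 75-base stretches, 9.18% of its exon sequence also matched elsewhere in mm9 with up to 2 mismatches, against 1.08% for Epas1 and 0 for the other 6 genes, so some of its reads may have been set aside as not unique.

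Egln3 (ENSMUSG00000035105.5, chr12:55279968-55304847, minus strand), a hydroxylase whose own transcription is a known HIF response, varied more within groups than between them. It had 18.8, 2.82 and 12.8 CPM in WT TRAP (106, 12 and 48 counts) and 14.5, 2.68 and 9.53 CPM in KO TRAP (52, 11 and 39 counts). In the input libraries of the same pools it had 12.5, 5.26 and 9.91 CPM in WT and 12.3, 8.65 and 11.3 CPM in KO. The low TRAP libraries, WT pool 2 and KO pool 3, were also the lowest in input, and the pools stood in the same order in TRAP as in input in both genotypes. TRAP minus input was 0.03 ± 0.43 (adjusted p = 0.968), with ratios of single pools from -1.52 to 0.58, and KO minus WT was -0.39 ± 0.80 in TRAP and 0.23 ± 0.34 in input. The 5 genes most like Egln3 over the 12 libraries, a list made after its values were seen, were St3gal5 (r = 0.901), Cit (0.895), Boc (0.893), Gucy1a3 (0.883) and Plcxd2 (0.872). Gucy1a3, a subunit of the nitric oxide receptor guanylate cyclase, ran from 44.9 to 134 CPM in WT TRAP and from 58.8 to 126 CPM in KO TRAP. The origin of this spread between pools was not tested.

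Vhl (ENSMUSG00000033933.7, chr6:113573953-113581627) encodes the subunit that recognises hydroxylated alpha subunits. It had 30.8, 33.6 and 28.7 CPM in WT TRAP, 34.9, 31.7 and 32.2 CPM in KO TRAP, 40.3, 32.7 and 42.1 CPM in WT input and 37.6, 31.3 and 33.3 CPM in KO input. Its groups overlapped. TRAP minus input was -0.18 ± 0.12 (adjusted p = 0.256), and KO minus WT was 0.08 ± 0.18 in TRAP and -0.17 ± 0.17 in input.

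**Figure D3:**
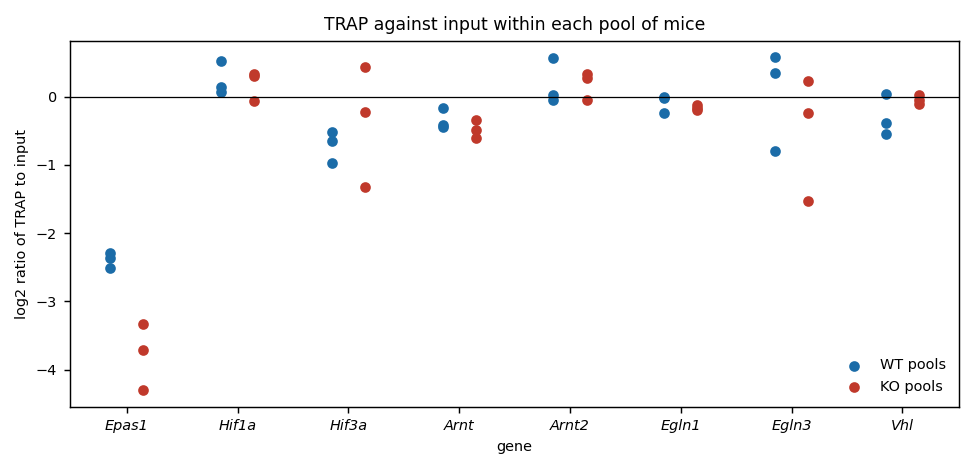
Log2 ratio of TRAP to input within each pool for the 8 genes, from CPM with 0.5 added; blue points are WT pools, red points KO pools, and 0 is equal level. Epas1 lies between -2.52 and -2.29 in WT and between -4.30 and -3.33 in KO. Arnt and Egln1 lie below 0 in 6 of 6 pools, Egln1 at -0.24 to -0.0009, and Egln3 spreads from -1.52 to 0.58.

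Of the 7 genes besides Epas1, 1 was called between TRAP and input over both genotypes, Arnt, which was lower, beside 22.5% of all genes called lower and 19.6% called higher. The median log2 ratio over all 8 was -0.15. Within WT 0 of the 7 besides Epas1 were called by edgeR (24.9% of all genes). Within KO 0 of these 7 were called by edgeR (29.1% of all genes), and Arnt had an unadjusted p of 0.0304. Between KO and WT in input 0 of 8 were called by edgeR (0.0312% of 12816 genes), 0 by DESeq2, and 0 had an unadjusted p under 0.05 (2.89% of all genes). The difference of the ratios between genotypes was tested for the 7 members besides Epas1, of which 0 were called by edgeR or DESeq2 and 0 had an unadjusted edgeR p under 0.05, with log2 values from -0.63 ± 0.86 (Egln3) to 0.45 ± 0.77 (Hif3a). The TRAP against input comparisons within WT and within KO share no library, while the KO against WT comparisons use the same libraries as these.

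The wider HIF machinery was read from a list of 38 genes for subunits, hydroxylases, ligase parts, coactivators and chaperones, of which 34 were tested between TRAP and input. Of these 7 were higher in TRAP, 8 were lower and 19 did not pass, a share called of 44.1% beside 42.2% of all genes. The elongin B gene Tceb2, a subunit of the VHL ligase, was higher by 0.65 ± 0.09 on the log2 scale (adjusted p = 6.85e-07), and the VHL scaffold Cul2 by 0.32 ± 0.10 (adjusted p = 0.0114), each in 6 of 6 pools. The chaperone Hsp90ab1 (0.52 ± 0.09), the transmembrane prolyl hydroxylase P4htm (0.60 ± 0.14) and the deubiquitinase Usp20 (0.40 ± 0.10) were also higher. The lower genes included relatives of the alpha subunits, Npas3 (-2.44 ± 0.22) and Npas1 (-2.71 ± 0.37), the ligase adaptor Wsb1 (-2.78 ± 0.26) and the coactivator Crebbp (-0.60 ± 0.07). Npas1 had at most 15 counts in a TRAP library. The hydroxylases Egln2 (0.12 ± 0.11) and Hif1an (-0.15 ± 0.14) and the ligase parts Rbx1 (0.21 ± 0.09) and Tceb1 (-0.05 ± 0.11) did not pass.

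Of 67 known HIF target genes 52 were tested between TRAP and input, of which 23 were higher in TRAP, 8 were lower and 21 did not pass. That is 59.6% called, with a median log2 ratio of 0.18, beside 42.2% and -0.01 over all genes. Sorted by function after the values were seen, 15 of the 21 tested genes of glucose uptake and glycolysis were called higher and 2 lower, beside 19.6% of all genes called higher. In the other sets, 0 of 4 genes of vessel growth were called higher and 2 lower, 2 of 5 of mitochondria higher, 3 of 7 of a mixed set higher (Mif, Ndrg1 and Car12) and 2 lower (the iron genes Trf and Tfrc), 3 of 11 of chromatin and transcription higher and 2 lower, and 0 of 4 of matrix and protein folding. Among the glycolytic genes were Aldoa (0.84 ± 0.05, adjusted p = 1.24e-12), Ldha (0.95 ± 0.08, adjusted p = 1.12e-10), Eno1 (0.79 ± 0.06, adjusted p = 1.34e-10) and Pkm2 (0.72 ± 0.06, adjusted p = 5.82e-10), which encode an aldolase, a lactate dehydrogenase subunit, an enolase and a pyruvate kinase. Aldolase C, a marker of astrocytes in forebrain, and hexokinase 2 were lower: the log2 ratio of Aldoc was -2.83 ± 0.08 (adjusted p = 3.89e-20) and that of Hk2 -1.003 ± 0.32 (adjusted p = 0.0125), the former at 71.5 ± 4.40 CPM in WT TRAP and 475 ± 42.6 CPM in WT input (SD, n = 3).

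The vessel growth factor Vegfa, a classic HIF target, was lower in TRAP (23.3 ± 4.52 CPM in WT TRAP and 41.0 ± 7.06 CPM in WT input, log2 -0.80 ± 0.14, adjusted p = 5.27e-05). The nuclear receptor gene Rora was lower as well (log2 -0.93 ± 0.11). The VEGF receptor gene Flt1 and the transferrin gene Trf were called lower too, but had at most 4 and 6 counts in a TRAP library, near or under the floor, and no fold is given for them. Flt1, Kdr, Tek and Slc2a1 are also on the endothelial list.

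**Figure D4:**
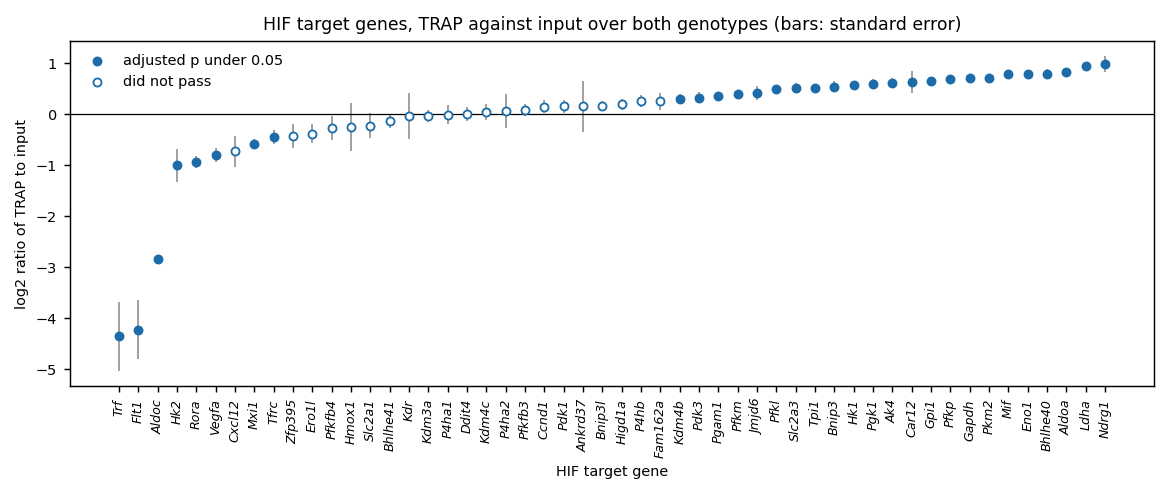
Log2 ratio of TRAP to input over both genotypes for the 52 HIF target genes tested, in order of their value; filled points passed an adjusted p of 0.05, open points did not, and bars are standard errors. Of the filled points 23 lie above 0 and 8 below it, where the values of Trf and Flt1 rest on at most 6 counts in a TRAP library.

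Between KO and WT, edgeR called 0 of 50 HIF targets and 0 of 33 HIF machinery genes in TRAP, and 0 of 52 and 0 of 34 in input. At an unadjusted p under 0.05, which 6.05% of all genes had in TRAP, were 5 targets, all with lower values in KO TRAP and all of glycolysis, namely Aldoa, Eno1, Hk2, Pfkl and Pkm2, with log2 differences from -0.17 ± 0.07 (Aldoa) to -1.13 ± 0.50 (Hk2). DESeq2 called 1 of them, Eno1, beside 18 of all 11727 genes, and 3 targets had an unadjusted DESeq2 p under 0.05. The log2 difference of Eno1 by edgeR was -0.39 ± 0.09 (adjusted p = 0.104), and its DESeq2 adjusted p was 0.0447. It had 667 ± 24.1 CPM in WT TRAP and 509 ± 37.8 CPM in KO TRAP (SD, n = 3). In input 3 targets had an unadjusted p under 0.05 (2.89% of all genes), Ccnd1 and Pdk3 upward and Eno1 downward. The chaperones Hsp90aa1 (-0.28 ± 0.09) and Hsp90ab1 (-0.18 ± 0.08) were the machinery genes with an unadjusted p under 0.05 in TRAP, and in input there were 0. Neuronal markers were read in the same libraries. Their sum was 13662 to 14283 CPM in WT TRAP and 11996 to 13182 CPM in KO TRAP, with no overlap. Of single genes, 6.12% had every KO TRAP library below every WT TRAP library. Of the neuronal markers 12 of 13 had lower values in KO, 0 were called and 3 had an unadjusted p under 0.05. The glutamatergic sums overlapped, at 9042 to 9754 CPM in WT TRAP and 8196 to 9375 CPM in KO TRAP, with 4 markers higher and 6 lower in KO. The part of either list in the values of the HIF targets was not tested.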

How the data were processed

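All 12 libraries of 6 pools of mice were used. The deposited files hold raw counts per gene, made by the authors with TopHat (mm9) and HTSeq-count (Gencode vM1) and not normalized or filtered; versions and the strand setting of the counting were not given in the sources used here, and the library kit was stranded. Reads on no gene, 20.6% to 27.1% of those aligned uniquely, stayed out of library sizes. For their own differential expression the authors used DESeq2.

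Here edgeR 4.0.16 in R 4.3.3 was run on the counts (filterByExpr by group, TMM, robust quasi-likelihood F test), with Benjamini-Hochberg adjustment over all genes tested in a comparison. CPM are TMM-scaled over the 12 libraries. A standard error is the log2 fold change over the square root of F. P-values measure the spread between the libraries of a group, which come from different pools. The pairing of TRAP and input within a pool enters only in the alternative with a pool block. The members and gene lists were chosen with earlier results of these data known. By rule, the HIF lists were named by up to 4 genes per direction, those called with the lowest p, plus Egln2, Hif1an, Cul2, Rbx1, Tceb1, Tceb2 and Vegfa; marker lists by their 2 most abundant genes, of which 1 is not reported here; and 5 genes as most like Epas1. Further genes of the lists (Hk2, Pfkl, Ccnd1, Pdk3, Mif, Ndrg1, Car12, Tfrc, Hsp90aa1, the endothelial markers at 0) and those most like Egln3 were named after their values were seen. Rack1 and Map2 are not in Gencode vM1 under these symbols.

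TRAP and input libraries of one number are from the same pool by the labels; their deviations from the group means correlated at 0.058 to 0.106, each above the value with any other number. Alternatives were RLE, total counts, other filters, no mitochondrial genes, no robust dispersion, DESeq2 1.42.0, 1 fit of all 12 libraries, a pool block, and leaving out each pool. The steps were tested on simulated data in which few genes were changed and libraries were drawn independently. They called 62% of genes changed 2-fold and 94% changed 3-fold between KO and WT input (12816 genes), and 72% and 96% between TRAP and input (13214 genes). In the data themselves 42.2% of genes were called between TRAP and input, so the latter shares need not hold there. Exon stretches were aligned with minimap2 2.31.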

Additional observations from a re-analysis of the deposited data

Results flagged for a closer look

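The log2 ratio of TRAP to input for Epas1 differed between the genotypes: KO minus WT was -1.38, with every KO pool (-4.30, -3.72 and -3.33) below every WT pool (-2.29, -2.52 and -2.36). This is the value for which the gene was taken up, so it carries no test here. It ran from -1.63 (without KO pool 4) to -1.18 over 14 alternatives.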

How the results depend on the processing

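The log2 ratio of TRAP to input for Epas1 ran from -2.45 to -2.36 within WT over 12 alternatives and from -3.20 to -2.99 over both genotypes over 14, both with no test. In input between KO and WT it was not called under any of 15 (0.14 to 0.23). Its TRAP difference between KO and WT ran from -1.43 with the pool number as a replicate block to -1.02 without KO pool 2. Among the members besides Epas1, Arnt alone was called between TRAP and input. With total counts without a composition factor Hif1a and Arnt2 passed as well, and with no filter beyond 1 count in any library Arnt2 passed and Arnt did not. With 1 pool left out, Arnt passed only without WT pool 3. Hif1a passed without WT pool 1 or KO pool 4, and Arnt2 without WT pool 1 or KO pool 2. Without WT pool 2 or KO pool 3 no member besides Epas1 passed. With the pool number as a block Epas1 was at -3.11, and the block changed no call among the other members. KO and WT pools of one number are different mice (correlations of -0.07 to 0.00).

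Values near 0 changed sign. Hif1a in input, KO minus WT, was -0.063 with the block and -0.057 to 0.147 with 1 pool left out. Egln1 in input ran from -0.039 to 0.130 with 1 pool left out. Egln3 between TRAP and input was -0.154 with the block and -0.178 to 0.192 with 1 pool left out, and in input, KO minus WT, -0.051 to 0.506. None of these was called under any setting. Among the TRAP differences, KO minus WT, which carry no test, the range with 1 pool left out was -0.12 to 0.12 for Hif1a, -0.94 to 0.018 for Hif3a, -0.26 to 0.044 for Arnt2, -0.08 to 0.03 for Egln1 and -0.92 to 0.20 for Egln3, so each of these included both signs. The cause was not tested. Hif3a had the fewest counts of the members, at 5 to 26 a library.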
